A study of Mus musculus with 9 samples.

Results

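The genes described here encode the spindle assembly checkpoint and the kinetochore, and were taken from a named list of 40. Probes were tied to the list through the RefSeq accession of the array design, and the probe brightest on average stood for each gene. The list holds 7 checkpoint genes, 14 genes of the inner kinetochore and 19 of the outer kinetochore, among 19993 named genes on the arrays. For 39 of the 40 a probe cleared the scanner's background call on every array of 1 or more groups, and these 39 entered the tests with 21802 features in all, named genes and unnamed probes together. The exception was Cenpf, a protein of the outer corona of the kinetochore.

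The samples were 9 clones of mouse embryonic cells in 3 groups of different ploidy (how many sets of chromosomes a cell carries): 3 triploid, 3 tetraploid and 3 diploid clones. All of them, the diploid ones included, carry the genotype p53-/-, which removes the tumour suppressor p53. The cells were grown in serum-supplemented minimum essential medium and received no treatment. Each clone was measured once, on a one-colour (Cy3) Agilent array, and no clone with intact p53 is part of the comparison. The labels do not say whether clones came from separate animals or cultures, so p-values measure only the spread between these samples. The same amount of RNA was labelled from every clone, so total RNA per cell was not measured, and in such bulk samples fewer cells in division and less RNA per dividing cell cannot be told apart.

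The kinetochore is the protein structure that joins each chromosome to the microtubules of the mitotic spindle. Its inner layer sits on nucleosomes that carry the histone variant CENP-A, and its outer layer grips the microtubules. Until every kinetochore is attached, checkpoint proteins gathered there hold back Cdc20, the activator of the anaphase-promoting complex, and delay the separation of the chromosomes. Many of these genes are transcribed mainly late in the cell cycle, so their RNA also follows how many cells of a culture are dividing. A cell with an extra chromosome set has more kinetochores to build and to attach.

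Promoters of 6 of the genes are printed here because genes active in G2 and mitosis often carry 2 short elements. One is the cell cycle genes homology region (CHR), bound by complexes with the MuvB core, and the other is the CCAAT box, bound by NF-Y. Each line gives the 250 bases before the start of the gene in RefSeq on GRCm38.p6, 5′ to 3′ on the strand of the gene. Capitals mark CHR (TTTGAA, or TTCAAA where it lies on the opposite strand) and CCAAT (or ATTGG).
Bub1, chr2:127831860-127832109, minus strand: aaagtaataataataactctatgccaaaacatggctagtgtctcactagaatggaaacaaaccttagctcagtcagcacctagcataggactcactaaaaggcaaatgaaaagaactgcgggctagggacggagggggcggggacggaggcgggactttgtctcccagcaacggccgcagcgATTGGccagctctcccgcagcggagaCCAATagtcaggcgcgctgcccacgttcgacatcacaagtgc
Bub1b, chr2:118597961-118598210, plus strand: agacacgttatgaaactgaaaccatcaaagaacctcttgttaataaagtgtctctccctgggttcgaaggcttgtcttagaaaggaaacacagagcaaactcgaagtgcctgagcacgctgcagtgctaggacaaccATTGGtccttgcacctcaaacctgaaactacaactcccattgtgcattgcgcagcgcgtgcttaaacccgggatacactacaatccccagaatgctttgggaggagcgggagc
Cdc20, chr4:118437344-118437593, minus strand: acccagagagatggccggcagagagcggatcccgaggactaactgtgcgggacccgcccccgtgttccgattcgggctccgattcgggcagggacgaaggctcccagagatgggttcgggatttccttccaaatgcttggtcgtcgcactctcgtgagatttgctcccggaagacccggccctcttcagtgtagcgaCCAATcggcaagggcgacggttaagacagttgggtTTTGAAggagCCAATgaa
Cenpn, chr8:116921490-116921739, plus strand: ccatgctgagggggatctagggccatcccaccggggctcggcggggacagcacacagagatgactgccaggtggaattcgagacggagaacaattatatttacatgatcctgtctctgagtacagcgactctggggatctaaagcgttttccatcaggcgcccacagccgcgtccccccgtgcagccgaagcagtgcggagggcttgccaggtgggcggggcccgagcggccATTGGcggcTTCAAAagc
Cenpm, chr15:82244337-82244586, minus strand: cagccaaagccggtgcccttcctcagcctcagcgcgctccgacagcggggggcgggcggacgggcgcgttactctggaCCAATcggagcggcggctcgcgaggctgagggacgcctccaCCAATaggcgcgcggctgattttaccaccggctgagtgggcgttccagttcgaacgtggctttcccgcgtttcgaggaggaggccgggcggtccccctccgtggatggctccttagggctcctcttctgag
Mad2l1, chr6:66534971-66535220, plus strand: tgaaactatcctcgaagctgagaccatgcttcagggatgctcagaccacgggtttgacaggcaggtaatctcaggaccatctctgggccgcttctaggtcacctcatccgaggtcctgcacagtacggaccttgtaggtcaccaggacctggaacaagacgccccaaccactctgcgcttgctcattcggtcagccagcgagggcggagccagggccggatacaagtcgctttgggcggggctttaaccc
Bub1 and Cenpm each hold a pair of CCAAT boxes in this window, Cdc20 and Cenpn hold both elements, and Mad2l1 holds neither. The CHR match of Bub1b lies downstream of the start and is not printed. Over the full window of 250 bases before and 50 bases after the start, which 36 of the 40 genes have, CHR was present in 17 of 36 (47.2%) and CCAAT in 24 of 36 (66.7%). Of 9951 named genes tested on the arrays that have a window, 14.5% hold CHR and 43.0% hold CCAAT. Both elements stood in 13 of 36 genes (36.1%), against 5.98% of those tested genes. Over all 27025 genes with a window the shares were 20.2% for CHR, 41.1% for CCAAT and 7.97% for both. CHR was found in 4 of 7 checkpoint genes, 4 of 14 inner and 9 of 15 outer kinetochore genes. The search covered both strands, a gene with several starts counted once if any window held the letters, and the 2 elements may share a base where they abut. Only TTTGAA was searched as CHR, so other spellings of the element were neither marked nor counted. A match describes the letters and not a site in use.

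On the 9 arrays 44.8% to 50.9% of spots were well above background and 0 were saturated. Across features, which are not independent replicates, triploid clones 2 and 3 correlated at 0.985, while triploid clone 1 correlated with them at 0.948 and 0.956 and with diploid clone 2 at 0.964. Diploid clone 1 was alone on its slide and scan, so slide and clone cannot be told apart there. Of 11 fibroblast and mesenchyme markers, 10 were well above background on all 9 arrays, and Thy1 was so on 2 triploid, 2 tetraploid and 3 diploid arrays. Among markers of other cells, 2 of 6 epithelial, 2 of 4 endothelial, 1 of 4 measured blood, 1 of 5 pluripotent and 3 of 4 neural genes were well above background on all arrays. Those on all arrays were Krt19, Krt14, Pecam1, Kdr, Cd3e, Nanog, Tubb3, Map2 and Nes, and Epcam, Cdh1, Ptprc, Adgre1, Cd79a, Pou5f1, Zfp42 and Gfap were not well above background on any.

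Some of these markers differed between the same groups. Krt19, an epithelial keratin, was the only marker called, and fell by 5.08 in triploid against diploid clones (adjusted p = 0.00459, limma), while tetraploid minus diploid was 0.71 (adjusted p = 0.574, limma). Thy1 was at -2.04, -2.63 and -4.86 in triploid clones and 2.66, -4.67 and -4.13 in tetraploid clones, against 6.42, 7.62 and 2.55 in diploid clones. Prrx1, a mesenchymal transcription factor, gave -1.64 for triploid minus diploid and -0.15 for tetraploid minus diploid. Pdgfrb, S100a4, Vim and Twist1 of the same list gave -1.78, -1.01, -0.75 and -0.62 for triploid minus diploid, without overlap for Vim and Twist1. Their tetraploid minus diploid values were 0.33, 0.11, 0.14 and 0.25. Col1a1, Col1a2 and Fn1 gave -0.04, 0.18 and -0.03 for triploid minus diploid. A few markers of the same lists were higher in triploid clones. Triploid minus diploid was 1.77 for Col3a1 and 1.36 for Pdgfra, with overlapping groups, and 0.91 for Krt14, without overlap. Krt14 was dim, with means of -2.12 in triploid and -3.03 in diploid clones. Krt18, another keratin, was dim on part of the triploid and tetraploid arrays and lower there than in every diploid clone. The summed signal of the 11 fibroblast markers, in multiples of the 75th percentile, ran from 1161 to 2497 in triploid and 2415 to 3014 in tetraploid clones, against 2325 to 3090 in diploid clones. That of the 6 epithelial markers ran from 0.755 to 2.06 in triploid and 30.6 to 49.3 in tetraploid clones, against 13.0 to 32.8 in diploid clones. Such sums mostly follow the brightest genes, S100a4 and Col1a2 among the fibroblast markers and Krt19 among the epithelial ones. Krt19 had means of -0.62 in triploid, 5.16 in tetraploid and 4.46 in diploid clones, and no other epithelial marker exceeded 0.95 in any clone. The part of the marker differences in those of the kinetochore genes was not tested.

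In the triploid clones, checkpoint and kinetochore genes mostly had higher signals than in the diploid clones, but no single gene passed the test. The difference was positive for 33 of 39 genes, with a median of 0.37 on the log2 scale. The median over all features was 0.10, so the genes lay 0.27 above it, and 29 of 39 lay above the median of all features. Every one of the 7 checkpoint genes had a positive difference, as did 10 of 14 inner and 16 of 18 outer kinetochore genes. At an adjusted p of 0.05 (limma, Benjamini-Hochberg over all features), 0 of 39 genes were called, against 400 of 21802 features (1.83%), of which 134 were higher and 266 lower in triploid clones. The lowest adjusted p among the 39 was 0.0865, for Ndc80. At an unadjusted p under 0.05, 10 genes were higher and 0 lower, where the shares over all features were 11.6% higher and 9.6% lower. That count of 10 was 5 with arrays scaled on the percentile over probes detected on all of them. For 12 genes (30.8%) all 3 triploid clones lay above all 3 diploid clones, a pattern that 17.2% of all features had, and for 0 genes they lay below, against 10.8% of all features. Under that other scaling 7 genes had all triploid above all diploid clones, against 11.6% of all features. With 3 clones against 3, an exact permutation test of a single gene could not give a p below 0.10.

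The tetraploid clones gave a shift of like size over the diploid clones. The difference was positive for 35 of 39 genes, with a median of 0.32, while the median over all features was -0.01. Relative to that, the genes lay 0.33 higher, and 36 of 39 lay above the median of all features. No gene was called, against 16 of 21802 features (0.0734%), all 16 lower in tetraploid clones, and the lowest adjusted p was 0.141 (limma), for Cenpm. At an unadjusted p under 0.05, 5 genes were higher and 0 lower, where 6.44% of all features were higher and 8.36% lower. For 9 genes (23.1%) all tetraploid clones lay above all diploid clones, against 11% of all features, and for 0 genes below, against 11.1%. Both comparisons use the same 3 diploid clones, so they are not independent of each other.

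Between the triploid and the tetraploid clones the differences were evenly split, with 20 of 39 positive and a median of 0.01. Over all features the median was 0.17, so relative to it the genes lay at -0.16, and 14 of 39 were above it. No gene was called, against 589 of 21802 features (2.7%), of which 237 were higher and 352 lower in triploid clones, and the lowest adjusted p was 0.180 (limma), for Cenpp. At an unadjusted p under 0.05, 2 genes were higher and 2 lower, where the shares over all features were 10.9% and 9.89%. All triploid clones lay above all tetraploid clones for 1 gene (2.56%), against 14.7% of all features, and below them for 3 genes (7.69%), against 11.3%.

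**Figure D1:**
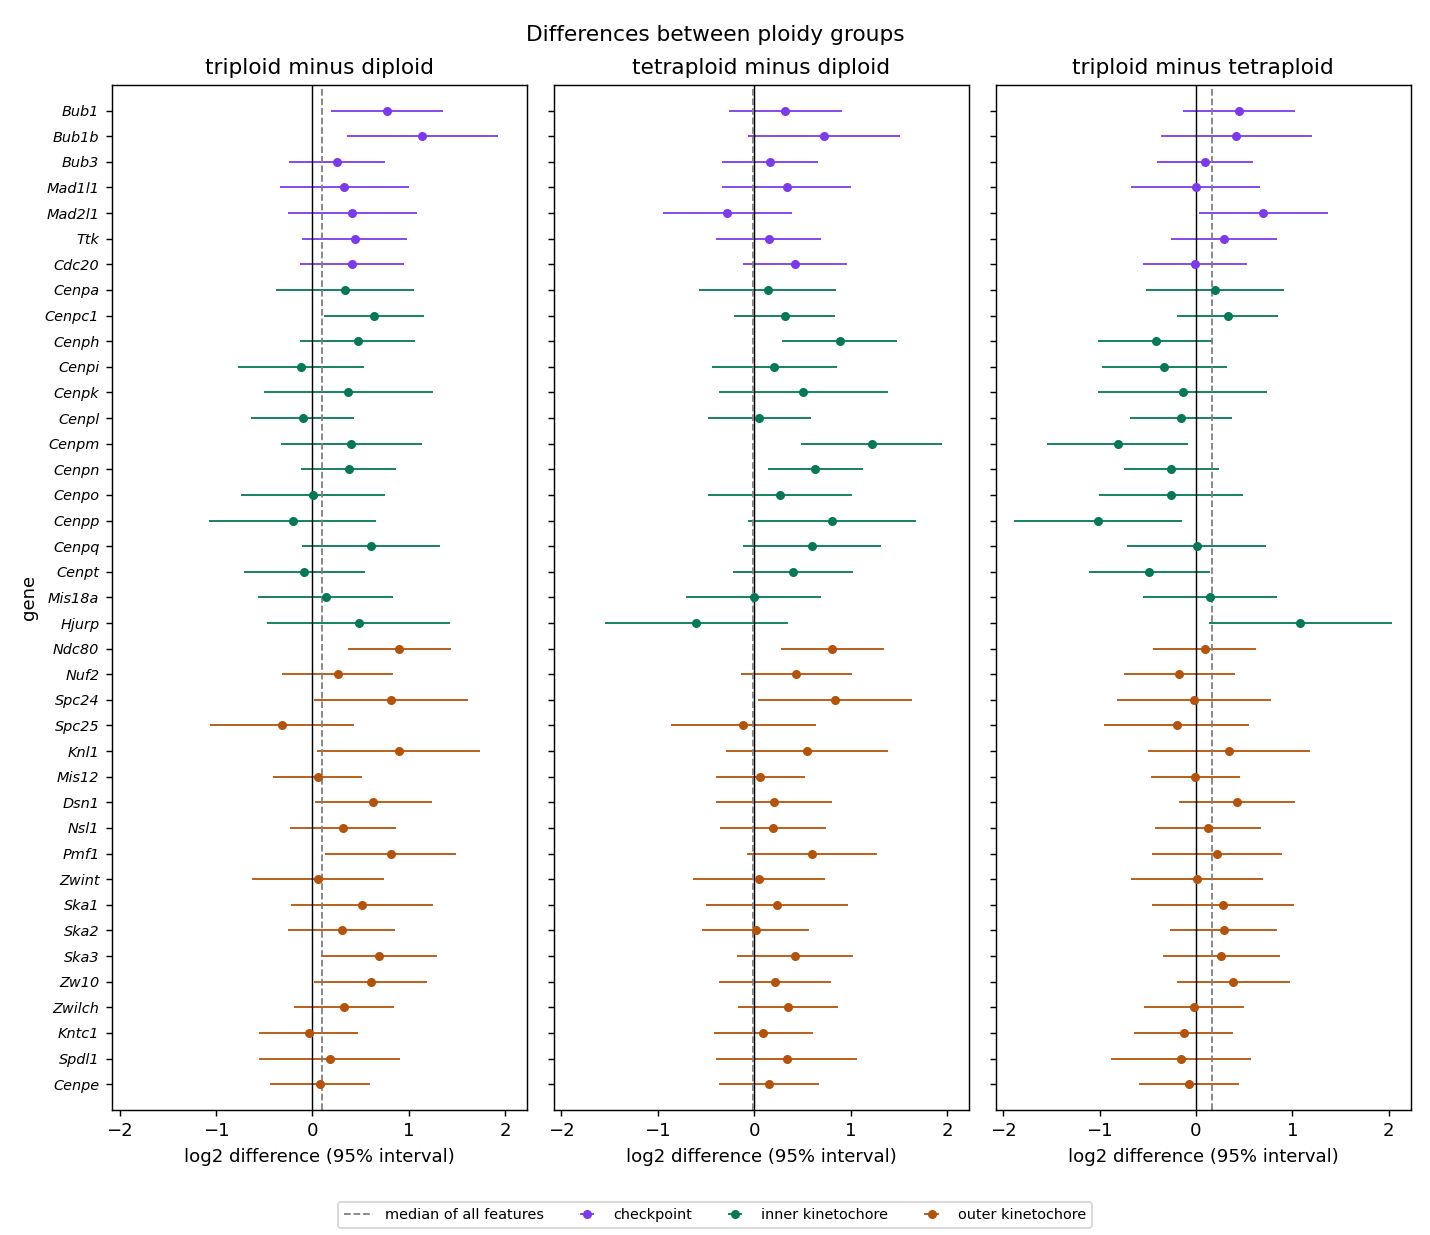
Log2 difference and 95% interval of the 39 genes in 3 panels, triploid minus diploid, tetraploid minus diploid and triploid minus tetraploid, with genes grouped from top to bottom as checkpoint, inner and outer kinetochore. The dashed line is the median of all features, at 0.10, -0.01 and 0.17 in the 3 panels, and most points of the first and second panel lie to its right while those of the third lie on both sides.

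The plot of differences with their 95% intervals shows how wide the uncertainty of single genes was. Over the 39 genes the intervals spanned values between -1.08 and 1.92 for triploid minus diploid, between -1.55 and 1.95 for tetraploid minus diploid, and between -1.88 and 2.03 for triploid minus tetraploid. Within groups the genes varied a little less than features at large. Their median standard deviation (SD) over clones was 0.24 in triploid, 0.32 in tetraploid and 0.27 in diploid clones, beside 0.31, 0.36 and 0.31 over all features.

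Of the 7 checkpoint genes, Bub1b, Bub1 and Ttk (42.9%) had all triploid above all diploid clones, against 17.2% of all features, and 0 had all tetraploid above all diploid clones, against 11%. With arrays scaled on the percentile over probes detected on all of them, Bub1b and Ttk overlapped and only Bub1 kept this pattern. Values per clone are log2 signals after subtraction of each array's 75th percentile, so that a gene at 0 is as bright as that percentile, and are given for clones 1 to 3 of each group. Differences carry the standard error (SE) of the limma fit and its adjusted p.

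Bub1b encodes BubR1, the part of the mitotic checkpoint complex that blocks Cdc20. Its signals were 2.15, 3.10 and 2.98 in triploid clones and 1.95, 2.60 and 2.44 in tetraploid clones, against 2.04, 1.08 and 1.69 in diploid clones. All triploid clones exceeded all diploid clones, though triploid clone 1 did so by little, and the tetraploid clones overlapped both groups. The difference of triploid from diploid clones was 1.14 ± 0.35 (SE, adjusted p = 0.118, limma), a 2.21-fold ratio, and that of tetraploid from diploid clones was 0.72 ± 0.35 (adjusted p = 0.371, limma). Without triploid clone 1 the triploid difference was 1.44 with an adjusted p of 0.0423 (limma), so 1 clone decided on which side of the threshold it fell.

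Bub1 is the kinase that marks centromeric histone H2A and recruits BubR1 and shugoshin. It gave 3.46, 3.34 and 3.55 in triploid clones and 2.97, 3.41 and 2.63 in tetraploid clones, against 2.996, 2.61 and 2.43 in diploid clones. The triploid clones lay close together and above every diploid clone, and tetraploid clone 2 was as high as they were. The triploid difference from diploid clones was 0.77 ± 0.26 (adjusted p = 0.143, limma) and the tetraploid one 0.32 ± 0.26 (adjusted p = 0.589, limma). Ttk, the kinase also known as Mps1 that starts checkpoint signalling, was near the 75th percentile in the triploid clones, at -0.06, -0.15 and -0.10. It stood at -0.78, -0.13 and -0.27 in tetraploid clones, against -0.24, -0.74 and -0.65 in diploid clones. Triploid and diploid clones did not overlap, and the difference was 0.44 ± 0.24 (adjusted p = 0.335, limma).

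Mad2l1 encodes Mad2, which changes shape at unattached kinetochores to bind Cdc20. By the brightest probe of each gene, it was the 1 gene of the 39 whose triploid clones all lay above the tetraploid clones, at 6.44, 5.98 and 6.10 against 5.28, 5.95 and 5.20. The diploid clones, at 5.34, 5.77 and 6.17, spanned most of that range and overlapped both groups. The triploid difference from tetraploid clones was 0.70 ± 0.30 (adjusted p = 0.222, limma). The other 2 probes of Mad2l1 gave differences of 0.22 and 0.26, with overlapping groups. For the remaining checkpoint genes all 3 groups overlapped in each comparison. Triploid minus diploid was 0.25 for Bub3, which docks Bub1 and BubR1 on the kinetochore, 0.33 for Mad1l1, the anchor of Mad2, and 0.41 for Cdc20. Tetraploid minus diploid was 0.16, 0.34 and 0.43 for the same 3 genes.

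**Figure D2:**
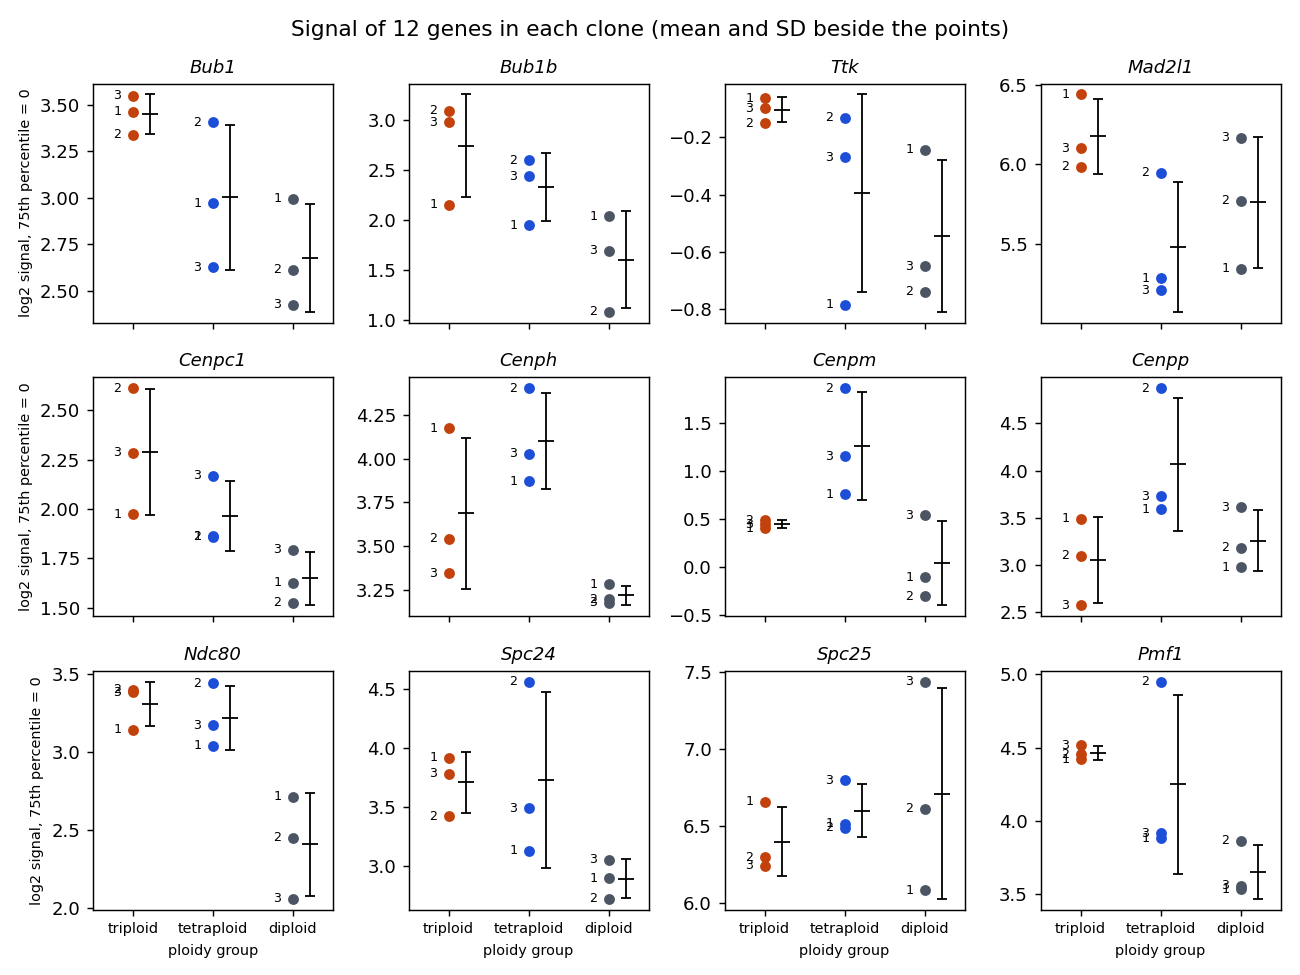
Log2 signal (75th percentile of the array = 0) of 12 genes in each of the 9 clones, with triploid, tetraploid and diploid clones from left to right, a number beside each point for the clone, and the mean with its SD (n = 3) drawn beside the points. Triploid and diploid clones do not overlap for Bub1, Bub1b, Ttk, Cenpc1, Cenph, Ndc80, Spc24 and Pmf1, and tetraploid clones lie above both other groups for Cenpm.

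At the inner kinetochore, 3 of 14 genes (Cenpc1, Cenph and Cenpn) had triploid clones above all diploid clones, and this share of 21.4% was near the 17.2% of all features. For 5 of 14 (these 3, Cenpm and Cenpo) all tetraploid clones lay above all diploid clones, 35.7% against 11% of all features. Under the scaling on detected probes, Cenph and Cenpn overlapped in the triploid comparison and Cenpc1 and Cenpo in the tetraploid one. The list holds 11 genes of the constitutive centromere-associated network, the scaffold that reads CENP-A and carries the outer layer. All 11 had positive tetraploid differences from diploid clones, with a median of 0.51, where 10615 of 21802 features were positive. In triploid clones 7 of the 11 differences from diploid clones were positive, with a median of 0.37, where 12603 of 21802 features were positive. Set against each other, 9 of the 11 genes had a negative difference of triploid from tetraploid clones, with a median of -0.26. The median of all features in that comparison was 0.17, and 8304 of 21802 were negative. Other genes of the network were read among the kinetochore partners. Tetraploid minus diploid was 0.70 for Cenpu, 0.45 for Cenpw and 0.52 for Cenpx, but -0.46 for Itgb3bp. Triploid minus tetraploid was -0.37, -0.77, -0.97 and 0.31 for the same genes.

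Cenpm, a subunit of the CENP-H, I, K and M complex, was the gene with the largest tetraploid difference. It gave 0.40, 0.49 and 0.45 in triploid clones and 0.76, 1.87 and 1.15 in tetraploid clones, against -0.11, -0.31 and 0.54 in diploid clones. Each tetraploid clone exceeded each clone of the other 2 groups, and diploid clone 3 exceeded the triploid clones. The tetraploid difference from diploid clones was 1.22 ± 0.32 (adjusted p = 0.141, limma), a 2.33-fold ratio with a 95% interval of the log2 value from 0.49 to 1.95. Triploid minus tetraploid was -0.81 ± 0.32 (adjusted p = 0.197, limma), and triploid minus diploid was 0.40 ± 0.32 (adjusted p = 0.521, limma).

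Cenph, of the same complex, was at 4.17, 3.54 and 3.34 in triploid clones and 3.87, 4.41 and 4.03 in tetraploid clones. The diploid clones were at 3.28, 3.19 and 3.17, below every clone of the other groups. The difference from diploid clones was 0.47 ± 0.26 (adjusted p = 0.345, limma) for triploid clones and 0.89 ± 0.26 (adjusted p = 0.173, limma) for tetraploid clones. Cenpn binds the CENP-A nucleosome directly, together with Cenpl. Its signals were 1.01, 1.35 and 1.44 in triploid clones and 1.33, 1.78 and 1.47 in tetraploid clones, against 0.80, 0.86 and 1.00 in diploid clones. Triploid and diploid clones were thus separated only narrowly, and tetraploid and diploid clones more widely, with differences of 0.38 ± 0.22 (adjusted p = 0.356, limma) and 0.64 ± 0.22 (adjusted p = 0.230, limma). Cenpl itself gave -0.10 for triploid minus diploid and 0.05 for tetraploid minus diploid, with overlapping groups.

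Cenpc1 encodes CENP-C, which bridges CENP-A nucleosomes and the MIS12 complex of the outer layer. It was at 1.97, 2.61 and 2.28 in triploid clones and 1.86, 1.86 and 2.17 in tetraploid clones, against 1.62, 1.52 and 1.79 in diploid clones. The diploid clones were lowest throughout, with a triploid difference of 0.64 ± 0.23 (adjusted p = 0.163, limma) and a tetraploid one of 0.32 ± 0.23 (adjusted p = 0.553, limma). Cenpt, the histone-fold protein that recruits NDC80 by a second route, was lower in each triploid than in each tetraploid clone. It stood at 1.24, 2.05 and 2.05 in triploid clones against 2.14, 2.22 and 2.42 in tetraploid clones, with 1.64, 1.78 and 2.16 in diploid clones. The difference was -0.48 ± 0.28 (adjusted p = 0.356, limma), and triploid clone 1 was the lowest of all 9.

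Cenpp belongs to the complex of CENP-O, P and Q, and had the lowest triploid minus tetraploid value of the 39 genes. It was at 3.49, 3.10 and 2.57 in triploid clones against 3.59, 4.88 and 3.73 in tetraploid clones, and at 2.98, 3.18 and 3.61 in diploid clones. Tetraploid clone 2 was far above the rest, and triploid clone 1 fell just short of tetraploid clone 1. The difference of triploid from tetraploid clones was -1.01 ± 0.39 (adjusted p = 0.180, limma), and that of tetraploid from diploid clones was 0.81 ± 0.39 (adjusted p = 0.369, limma).

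The probes of Cenpo and Cenpq differed in size. For Cenpo, of the same complex, the brighter probe gave a tetraploid minus diploid value of 0.27 and the second probe 0.60, with no overlap of the groups by either at the scaling used. The second probe also had all triploid below all tetraploid clones, with a difference of -0.58, whereas the brighter one gave -0.26 and overlapped. For Cenpq, triploid minus diploid was 0.61 by the brighter probe, with overlap, and 0.90 by the second, without overlap.

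The genes that load CENP-A differed in sign between comparisons. Hjurp, the chaperone that deposits CENP-A, was at -1.41, -0.07 and -0.05 in triploid clones and at -1.83, -1.24 and -1.71 in tetraploid clones, against -1.49, -0.41 and -1.08 in diploid clones. Triploid clones 2 and 3 were the highest of all 9, while triploid clone 1 was within the tetraploid range. Triploid minus tetraploid was 1.08 ± 0.42 (adjusted p = 0.188, limma), and without triploid clone 1 its adjusted p was 0.0398 (limma). A second probe of Hjurp, well above background on all 9 arrays, gave 1.24 and had all triploid above all tetraploid clones. The third gave 1.26 with overlap and was well above background on 6 of 9 arrays. Cenpa, the histone variant itself, and Mis18a, which prepares centromeres for its loading, overlapped in every comparison, at 0.34 and 0.14 for triploid minus diploid and at 0.14 and -0.01 for tetraploid minus diploid. Cenpi and Cenpk, the remaining inner genes, gave -0.12 and 0.37 for triploid minus diploid and 0.21 and 0.51 for tetraploid minus diploid, also with overlapping groups.

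Of the 18 measured outer kinetochore genes, 6 (33.3%) had triploid clones and 4 (22.2%) had tetraploid clones above all diploid clones, against 17.2% and 11% of all features. Under the scaling on detected probes, Nsl1 overlapped in the triploid comparison and Pmf1 in the tetraploid one. The NDC80 complex, the main microtubule binder, held the gene with the lowest adjusted p of the 39. Ndc80 itself was at 3.14, 3.40 and 3.38 in triploid clones and 3.04, 3.44 and 3.17 in tetraploid clones, against 2.71, 2.45 and 2.06 in diploid clones. All 6 clones of higher ploidy lay above all diploid clones, and the triploid and tetraploid ranges overlapped almost fully. The triploid difference was 0.90 ± 0.24 (adjusted p = 0.0865, limma), a 1.87-fold ratio with a 95% interval of the log2 value from 0.37 to 1.44. The tetraploid difference was 0.81 ± 0.24 (adjusted p = 0.164, limma), and triploid minus tetraploid was 0.09.

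Spc24, which anchors the complex on its kinetochore side, was also lowest in the 3 diploid clones. It was at 3.92, 3.42 and 3.78 in triploid clones and 3.13, 4.56 and 3.49 in tetraploid clones, against 2.90, 2.72 and 3.05 in diploid clones. Tetraploid clone 1 cleared the diploid clones by little and tetraploid clone 2 was highest of all. The differences from diploid clones were 0.82 ± 0.35 (adjusted p = 0.225, limma) for triploid and 0.84 ± 0.35 (adjusted p = 0.316, limma) for tetraploid clones.

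The other 2 subunits of the complex did not have this pattern. Spc25, the partner of Spc24, was at 6.66, 6.30 and 6.24 in triploid clones and 6.52, 6.49 and 6.80 in tetraploid clones, against 6.08, 6.61 and 7.44 in diploid clones. The diploid clones spanned the whole range, and the differences were -0.31 for triploid and -0.11 for tetraploid clones. Nuf2, the partner of Ndc80, was at 3.28, 3.70 and 3.40 in triploid clones and 3.43, 4.01 and 3.46 in tetraploid clones, against 2.99, 3.08 and 3.52 in diploid clones by its brighter probe. The groups overlapped, with differences of 0.26 and 0.44. Its second probe, well above background on 5 of 9 arrays, gave -2.07 and -1.65, so the 2 probes disagreed in sign and the value for Nuf2 is uncertain.

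The MIS12 complex links the inner layer to NDC80, and its subunits differed among themselves. Pmf1 was at 4.42, 4.46 and 4.51 in triploid clones and 3.88, 4.95 and 3.92 in tetraploid clones, against 3.53, 3.86 and 3.56 in diploid clones. The triploid clones were nearly equal and well above the diploid clones, whereas tetraploid clones 1 and 3 exceeded diploid clone 2 by little. The differences from diploid clones were 0.81 ± 0.30 (adjusted p = 0.171, limma) and 0.60 ± 0.30 (adjusted p = 0.388, limma), and the second probe of Pmf1 gave 0.69 and 0.68. Nsl1, another subunit, was at 2.28, 2.46 and 2.65 in triploid clones against 2.11, 2.21 and 2.12 in diploid clones. Neither of its probes overlapped between these groups, and their differences were 0.32 by the brighter and 1.18 by the second. Dsn1 overlapped, with a triploid difference of 0.63 ± 0.27 (adjusted p = 0.216, limma), and Mis12, the subunit that names the complex, gave 0.06 and 0.07 for triploid and tetraploid minus diploid.

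Knl1, the scaffold on which Bub1 and Bub3 gather, had a triploid difference from diploid clones of 0.89 ± 0.37 (adjusted p = 0.211, limma) that came with a wide spread. It was at -0.20, 0.61 and 0.44 in triploid clones and -0.17, 0.09 and -0.11 in tetraploid clones, against 0.01, -0.42 and -1.42 in diploid clones. Diploid clone 3 was far below the rest, and triploid clone 1 was below diploid clone 1. Zwint, its binding partner, gave 0.06. Of the SKA complex, which tracks shrinking microtubule ends, Ska3 had all clones of higher ploidy above the diploid ones, with differences of 0.69 ± 0.27 (adjusted p = 0.187, limma) for triploid and 0.42 ± 0.27 (adjusted p = 0.491, limma) for tetraploid clones. Ska1 and Ska2 overlapped, at 0.51 and 0.31 for triploid minus diploid.

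Of the RZZ complex, which brings dynein and Mad1 to the kinetochore, Zw10 had all triploid above all diploid clones, with a difference of 0.61 ± 0.26 (adjusted p = 0.220, limma). Its partners Zwilch and Kntc1 gave 0.33 and -0.04, with overlap. Spdl1, the adaptor known as Spindly, and Cenpe, a kinesin that moves chromosomes to the spindle middle, gave 0.18 and 0.08 for triploid minus diploid and 0.34 and 0.15 for tetraploid minus diploid. Subunits of a single complex thus spread widely, within NDC80 between -0.31 and 0.90 for triploid minus diploid.

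**Figure D3:**
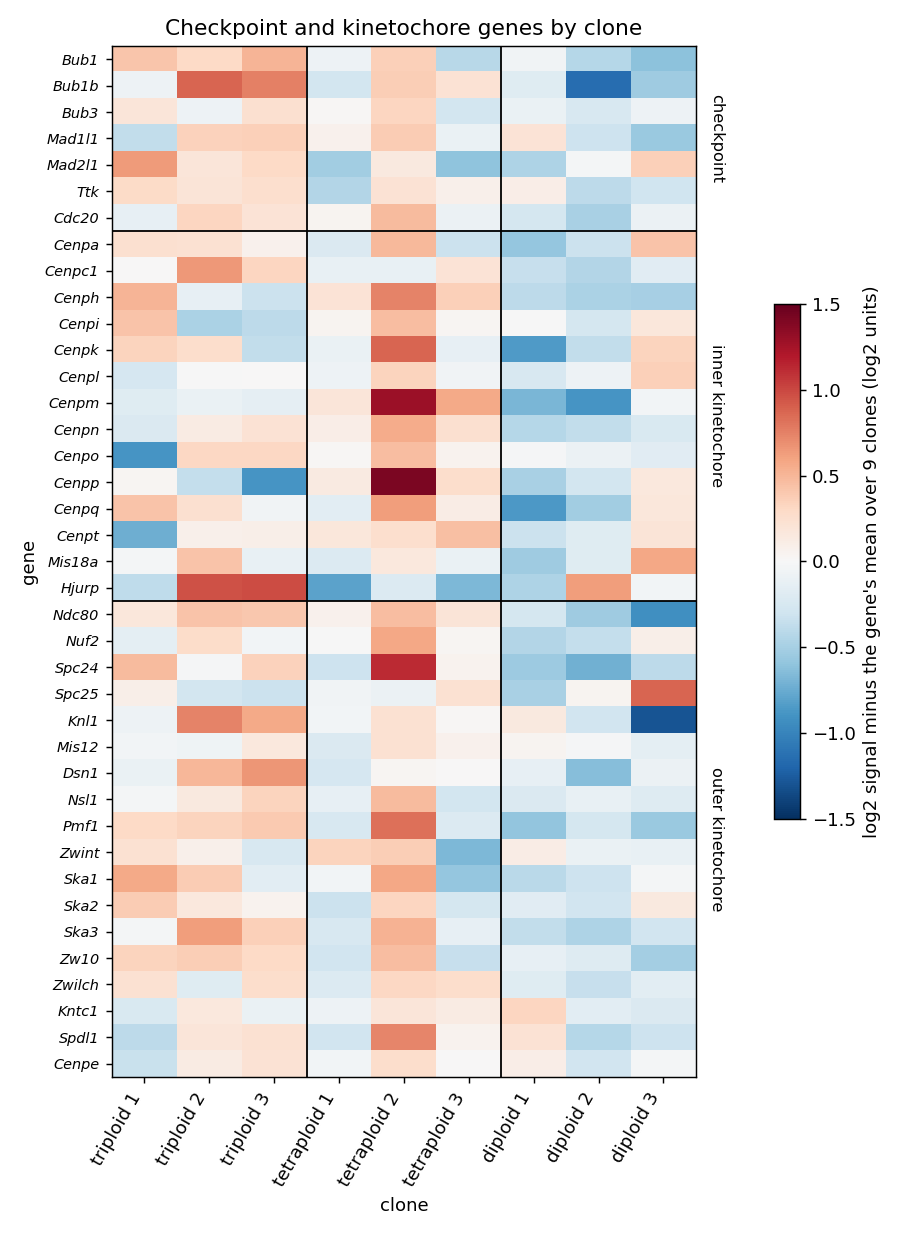
Log2 signal of each of the 39 genes minus its mean over the 9 clones, with clones in columns (triploid, tetraploid, diploid) and genes in rows by layer; red is above and blue below the mean of the gene. The column of tetraploid clone 2 is red for most genes, and the diploid columns are mostly blue, with exceptions such as Spc25 and Mis18a in diploid clone 3.

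The map of genes by clone shows how the clones of a group differed. Tetraploid clone 2 was the highest of all 9 clones for 24 of 39 genes (61.5%), against 12.8% of all features. After each array was centred on its median over all features, the count was 15 of 39 (38.5%), against 7.96% of all features. After the same centring, diploid clones 1, 2 and 3 were lowest for 8, 9 and 8 genes (20.5%, 23.1% and 20.5%), against 10.5%, 9.5% and 13.1% of all features. The median of the 39 genes after that centring was -0.12, 0.09 and 0.20 in triploid clones and -0.06, 0.27 and 0.28 in tetraploid clones, against -0.21, -0.28 and -0.14 in diploid clones. All diploid clones were thus below the other 6, but triploid clone 1 and tetraploid clone 1 came close to diploid clone 3. The value of tetraploid clone 3 depends much on the centring, since its median over all features was -0.26, the lowest of the 9. That clone was highest for 1 of 39 genes before the centring and for 8 after it, against 11.8% and 21.7% of all features.

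The layers differed by clone in these centred medians. The checkpoint genes stood at 0.05, 0.19 and 0.28 in triploid clones and -0.06, 0.25 and 0.15 in tetraploid clones, against -0.04, -0.37 and -0.33 in diploid clones. Diploid clone 1 thus overlapped the tetraploid clones but not the triploid ones. The inner kinetochore genes stood at -0.13, 0.07 and -0.04 in triploid clones and -0.02, 0.36 and 0.34 in tetraploid clones, against -0.39, -0.27 and 0.13 in diploid clones, where diploid clone 3 was above all triploid clones. The outer kinetochore genes stood at -0.10, 0.06 and 0.23 in triploid clones and -0.15, 0.31 and 0.27 in tetraploid clones, against -0.12, -0.27 and -0.20 in diploid clones.

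Related genes that act with the kinetochore and general markers of proliferating cells were read from the same fit. Of 61 such genes 56 were measured, and 0 were called in any of the 3 comparisons. For triploid against diploid clones, 21 of the 56 did not overlap and were higher and 2 were lower, where 17.2% of all features were higher and 10.8% lower. For tetraploid against diploid clones 16 were higher and 1 lower, beside 11% and 11.1% of all features. For triploid against tetraploid clones, 3 were higher and 5 lower, beside 14.7% and 11.3%.

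The proliferation markers had larger medians than the kinetochore genes. Relative to all features, the 16 measured markers had a median of 0.52 for triploid minus diploid and 0.48 for tetraploid minus diploid, beside 0.27 and 0.33 for the 39 genes. Mcm5 and Mcm7, subunits of the replicative helicase, had triploid differences from diploid clones of 1.54 ± 0.45 (adjusted p = 0.106, limma) and 1.26 ± 0.29 (adjusted p = 0.0641, limma). Tetraploid minus diploid was 0.77 ± 0.29 (adjusted p = 0.265, limma) for Mcm7 and 0.75 ± 0.30 (adjusted p = 0.294, limma) for Ccna2. In that comparison 13 of 16 markers were positive and 3 negative. Not all markers went this way: 3 of 16 were negative for triploid minus diploid, namely Mki67 (-0.18), Ccne1 (-0.44) and Rrm2 (-0.36). Mki67, the Ki-67 protein of cycling cells, was lower in each triploid than in each tetraploid clone, by -0.37 ± 0.23 (adjusted p = 0.390, limma). It was 1 of 16 markers (6.25%) with that pattern, against 11.3% of all features. By clone the markers stood at -0.01, 0.28 and 0.27 in triploid clones and -0.05, 0.44 and 0.04 in tetraploid clones, against -0.06, -0.46 and -0.46 in diploid clones. Diploid clone 1 was level with triploid clone 1 and tetraploid clone 1, as it nearly was for the checkpoint genes. The part of proliferation in the differences of the kinetochore genes was not tested.

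The chromosomal passenger complex, which corrects faulty attachments, and the shugoshins, which protect centromeric cohesion, had a relative median of 0.37 over 6 genes for triploid minus diploid and of 0.16 for tetraploid minus diploid. Sgo1, a shugoshin, had a triploid difference of 0.82 ± 0.27 (adjusted p = 0.140, limma), and Incenp, the scaffold of the passenger complex, of 0.63 ± 0.22 (adjusted p = 0.160, limma). For Incenp the triploid clones also lay above the tetraploid clones, by 0.43. This 1 of 6 genes (16.7%) was near the share of all features, 14.7%.

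The anaphase-promoting complex is the ubiquitin ligase that the checkpoint restrains, and its 17 measured genes had relative medians of 0.18 and 0.31 for triploid and tetraploid minus diploid. The subunit Anapc7 had the lowest adjusted p of these related genes, with 0.92 ± 0.21 (adjusted p = 0.0619, limma) for triploid and 0.69 ± 0.21 (adjusted p = 0.175, limma) for tetraploid minus diploid. For triploid minus tetraploid, Anapc1 gave 0.85 and Anapc16 gave -0.71, both without overlap. In that comparison 1 of 17 genes (5.88%) was higher and 2 (11.8%) were lower without overlap, against 14.7% and 11.3% of all features.

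Among 17 measured partners of the kinetochore, the relative medians were 0.17 and 0.33. Kif11, the motor that pushes spindle poles apart, gave 1.33 ± 0.31 (adjusted p = 0.0654, limma) for triploid and 1.16 ± 0.31 (adjusted p = 0.139, limma) for tetraploid minus diploid. Mad2l1bp, known as p31comet, which helps to switch the checkpoint off, gave 0.85 ± 0.23 (adjusted p = 0.0941, limma) and 0.62 ± 0.23 (adjusted p = 0.262, limma). Cenpx and Cenpw, histone-fold partners of Cenpt, were lower in each triploid than in each tetraploid clone, by -0.97 ± 0.27 (adjusted p = 0.0866, limma) and -0.77 ± 0.36 (adjusted p = 0.265, limma). These 2 of 17 partners (11.8%) were near the share of all features, 11.3%.

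**Figure D4:**
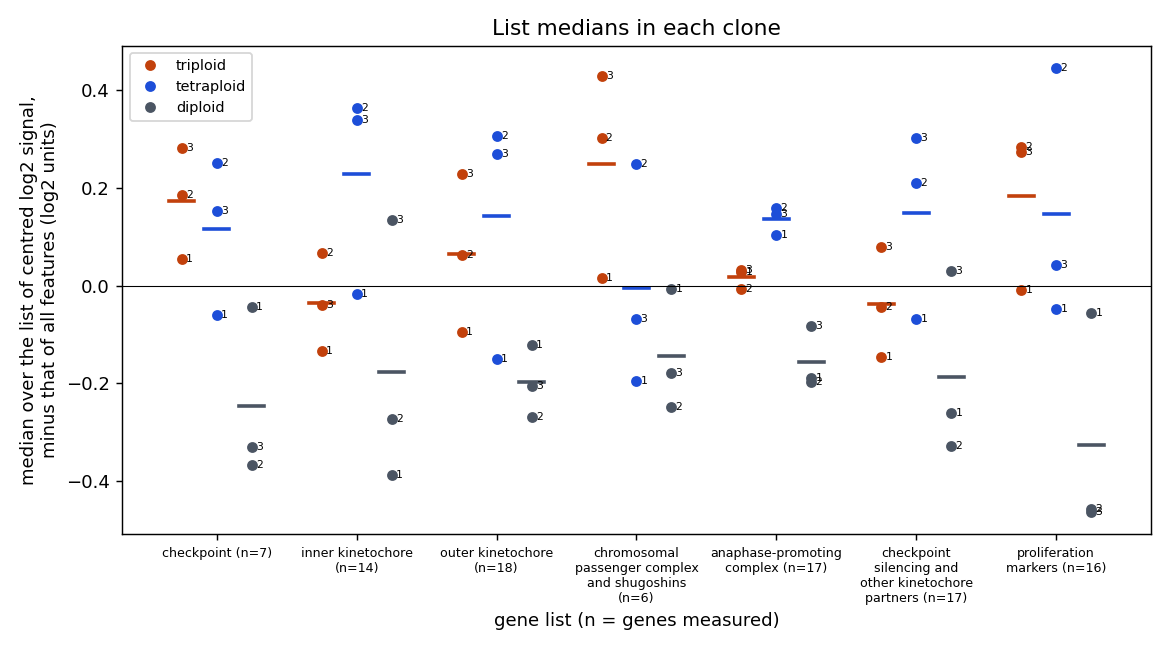
Median over each gene list of the log2 signal, after each gene was centred on its mean over clones, minus the same median over all features, in each clone; points are clones with their number, short bars are group means, and n is the number of measured genes. Diploid clones lie lowest on average in every list, tetraploid clones highest in the inner and outer kinetochore lists, and diploid clone 1 stands near 0 for the proliferation markers.

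The plot of list medians by clone places these lists side by side. With the median of all features subtracted, tetraploid clones were highest on average for inner and outer kinetochore genes, the anaphase-promoting complex and the kinetochore partners. Without that subtraction, triploid minus tetraploid had a median of 0.05 for outer kinetochore genes, with 10 of 18 positive. For the partners it was 0.07, with 10 of 17 positive. Triploid clones were highest on average for the checkpoint genes, the passenger complex and the proliferation markers. For the anaphase-promoting complex no groups overlapped in these medians. Triploid clones stood at 0.03, -0.01 and 0.03 and tetraploid clones at 0.10, 0.16 and 0.15, against -0.19, -0.20 and -0.08 in diploid clones. The subtracted median was 0.12, 0.11 and 0.02 in triploid clones and -0.01, 0.11 and -0.26 in tetraploid clones. The gap between these 2 groups depends on it. By gene, triploid minus tetraploid was positive for 8 of 17, with a median of -0.02, beside 0.17 over all features. Triploid and diploid clones were also apart for the checkpoint, outer kinetochore, passenger complex and proliferation lists, by the narrow gaps between clone 1 of each group, and they overlapped for the inner kinetochore and the partners.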

How the data were processed

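Total RNA of 9 clones was labelled with Cy3 and hybridised to 1 Agilent array each. Per the file headers, the software was Feature Extraction 10.7.3.1 and the array design rests on mm9. The deposited scanner files hold processed signals as intensity: the software had subtracted background and detrended each array, and arrays were not normalized to each other. A deposited log2 table has diploid clone 1 as its reference, per the labels. It equalled the scanner log2 values, less a constant per array and less diploid clone 1, within 0.001 at 100% of probes, and served as an alternative. The 40 genes and the other lists were chosen with earlier results of these data known.

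The 59305 spots that are not controls held 55681 probes. Log2 values of repeated spots were averaged, and the 75th percentile of each array was subtracted, which lay between 215 and 407 in intensity. Probes called well above background on every array of 1 or more groups were kept (25473), and 83 with all spots on an array marked by the software were dropped. A RefSeq table of GRCm38.p6 named 26407 probes by accession and left 29274 unnamed. The brightest kept probe stood for a gene, which gave 12434 named genes and 9368 unnamed probes. Group means were fitted jointly to all 9 arrays with limma 3.58.1 in R 4.3.3 (prior degrees of freedom 3.19), with Benjamini-Hochberg adjustment over all features at 0.05. The script was tested on simulated data. Arrays give no counts, and their number limits the precision.

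Per-clone values were to be printed, per layer and comparison, for up to 3 genes with the largest difference among those whose groups did not overlap, and for genes whose probes disagreed or were dim. Knl1, Spc25 and Hjurp were given in addition after their values were seen. The same rule named up to 2 related genes per list and comparison. Alternatives were the scaling, background correction, probe filter and probe choice, the deposited table, slide and replicate blocks, fits of 2 groups, a variance trend and leaving out each clone. The files hold no mean spot signal, so the planned normexp correction (offset 50) ran on median signals. Counts of genes that do not overlap were recomputed under alternatives chosen after seeing the data. Clones of the same number were not paired: their deviations from group means correlated at -0.13 to 0.09. Promoter windows came from RefSeq on GRCm38.p6, and 4 of the 40 genes had none in the table used.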

Additional observations from a re-analysis of the deposited data

Results flagged for a closer look

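Cenpf, a corona protein of the outer kinetochore, was outside the tests because its probe was not well above background on all arrays of any group. It was well above background on 4 of 9 arrays, 1 triploid, 1 tetraploid and 2 diploid, which is a signal in data that no comparison used. Its log2 signals were -4.85, -3.32 and -3.70 in triploid clones and -3.76, -3.47 and -3.45 in tetraploid clones, against -3.77, -3.15 and -3.70 in diploid clones. The groups overlapped, and no fold was computed.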

How the results depend on the processing

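No gene of the 39 was called under any alternative run, except Bub1b for triploid minus diploid and Hjurp for triploid minus tetraploid, each without triploid clone 1. Leaving out 1 clone thus gave 0 to 1, 0 to 0 and 0 to 1 called genes for triploid minus diploid, tetraploid minus diploid and triploid minus tetraploid. The 19 named differences kept their sign in all 379 further values but the 1 of Bub1b that passed the threshold, which kept it too. Features called for triploid minus diploid numbered 103 without a filter on dim probes, 81 with slide as a block, 206 from a fit of only the 2 groups, 219 with a replicate block and 61 to 1434 without 1 clone, against 400. For tetraploid minus diploid they numbered 97 with the percentile taken over probes detected on all arrays, 5 with quantile normalization, 6 with normexp, 0 without the filter, 0 with the slide block, 0 with the replicate block and 0 to 40 without 1 clone, against 16. For triploid minus tetraploid they numbered 198 without the filter, 284 with the slide block, 369 from 2 groups and 117 to 1312 without 1 clone, against 589; the replicate block gave 465. The replicate block changed no call among the 39 genes. The cause of these changes was not tested.

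With the percentile over detected probes, the triploid minus diploid calls split into 119 higher and 441 lower (134 and 266 otherwise), and those without the filter into 23 and 80, and the median of all features moved to -0.05 for triploid and -0.14 for tetraploid minus diploid. The median difference of the 39 genes relative to all features stayed at 0.27 and 0.33 under that scaling. It was 0.18 for triploid minus diploid with quantile normalization and 0.18 with normexp, and 0.19 and 0.15 for tetraploid minus diploid. Without 1 clone it ran from 0.21 to 0.33 for triploid minus diploid, from 0.22 to 0.38 for tetraploid minus diploid and from -0.21 to -0.0084 for triploid minus tetraploid. Genes with all triploid above all diploid clones numbered 7 with the percentile over detected probes (11.6% of all features), all among the 12 described; Bub1b, Ttk, Cenph, Cenpn and Nsl1 overlapped. For tetraploid minus diploid the count was 7 under that scaling (7.32% of all features), and 6 of the 9 described were among them, since Cenpc1, Cenpo and Pmf1 overlapped; it was 6 with quantile normalization and with normexp, 5 of them among the 9. Genes at an unadjusted p under 0.05 numbered 4 to 11, 3 to 8 and 0 to 5 for triploid minus diploid, tetraploid minus diploid and triploid minus tetraploid over all alternatives (4 of the first without triploid clone 2 or 3 or diploid clone 2, 0 of the last without triploid clone 2 or 3). Groups of 2 and 3 clones separate more easily, so shares of all features follow in brackets. Without 1 clone the counts of genes that do not overlap ran from 12 to 23 higher and 0 to 1 lower for triploid minus diploid (19 without triploid clone 1 [27.6%], 23 without diploid clone 3 [23.4%]). They ran from 9 to 17 higher and 0 to 2 lower for tetraploid minus diploid (15 without tetraploid clone 1 [13.8%] or diploid clone 1 [16.1%], 17 without diploid clone 3 [18.7%]). They ran from 1 to 10 higher and 3 to 6 lower for triploid minus tetraploid (6 higher [24.4%] and 6 lower [17.7%] without triploid clone 1, 10 higher without tetraploid clone 2 [30.4%]).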
